A study of Mus musculus with 6 samples.

Results

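Of the 32285 genes counted in the 6 libraries, 10 genes of colony-stimulating factor (CSF) and transforming growth factor beta (TGF-beta) signaling were taken by symbol, 4 CSF receptor genes (*Csf1r*, *Csf2ra*, *Csf2rb* and *Csf3r*) and 6 genes of the TGF-beta pathway (*Tgfb1*, *Nrros*, *Tgfbr1*, *Tgfbr2*, *Smad7* and *Ski*). All 10 were found, and none was used to define a cell type. The cells came from the brains of 3 male C57BL/6J mice at postnatal day 89, dissociated by cold Dounce homogenization and sorted as live CD45+/CD11b+ cells. The homogenization was done without inhibitors in mice 1 and 3 (DNC-NONE) and, in mouse 2 (DNC-INHIB), in the presence of drugs that block transcription and translation. Cells of every mouse were captured with both the 10X 3' V3.0 and the V3.1 kit, so each kit and each mouse is represented by 1 library per combination. Cells were gated on other marker genes into 17124 microglia, 38 border macrophages and 250 neutrophils, and 2313 of the 19725 cells that passed quality control entered none of these gates. The labels name no mutation or transgene in these mice, and the whole brain was used.

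Microglia, the resident macrophages of the brain, depend on CSF1 receptor signaling for their survival. *Csf1r* encodes the receptor tyrosine kinase that binds CSF1 and IL-34. GM-CSF binds the alpha chain encoded by *Csf2ra* together with the common beta chain encoded by *Csf2rb*, and *Csf3r* encodes the receptor for G-CSF, the main growth factor of the neutrophil lineage. *Tgfb1* encodes a cytokine that is secreted in a latent complex, and in myeloid cells the membrane protein encoded by *Nrros* holds that complex at the cell surface. The active ligand binds TGFBR2, which recruits and phosphorylates TGFBR1, which in turn activates SMAD2 and SMAD3. *Smad7* is an inhibitory SMAD that is itself induced by the pathway, and *Ski* encodes a corepressor that binds SMAD proteins. TGF-beta signaling is known to maintain the adult microglial identity.

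RefSeq promoter windows (GRCm38.p6, 250 bases before to 50 after the start site) were at hand for 7 of the 10 genes. They are shown for 2 of the receptor genes that were higher in neutrophils than in microglia, *Csf3r* and *Csf2ra*, and for the TGF-beta receptor genes, which were higher in microglia. Capitals mark GAGGAA on either strand, the core of the motif bound by PU.1, the master transcription factor of myeloid cells.
Csf3r (chr4:126024409-126024708, plus strand): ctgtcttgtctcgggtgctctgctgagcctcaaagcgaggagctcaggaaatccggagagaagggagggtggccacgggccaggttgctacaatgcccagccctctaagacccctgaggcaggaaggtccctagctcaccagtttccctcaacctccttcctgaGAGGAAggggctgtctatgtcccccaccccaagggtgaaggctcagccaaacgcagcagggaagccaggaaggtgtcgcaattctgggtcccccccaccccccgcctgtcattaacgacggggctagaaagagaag
Csf2ra (chr19:61228369-61228668, minus strand): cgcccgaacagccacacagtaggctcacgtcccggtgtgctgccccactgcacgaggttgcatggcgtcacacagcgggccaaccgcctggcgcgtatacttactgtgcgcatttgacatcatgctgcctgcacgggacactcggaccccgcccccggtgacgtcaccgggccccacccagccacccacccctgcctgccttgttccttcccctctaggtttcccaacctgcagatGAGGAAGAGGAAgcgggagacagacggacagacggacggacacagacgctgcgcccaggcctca
Tgfbr2 (chr9:116175314-116175613, minus strand): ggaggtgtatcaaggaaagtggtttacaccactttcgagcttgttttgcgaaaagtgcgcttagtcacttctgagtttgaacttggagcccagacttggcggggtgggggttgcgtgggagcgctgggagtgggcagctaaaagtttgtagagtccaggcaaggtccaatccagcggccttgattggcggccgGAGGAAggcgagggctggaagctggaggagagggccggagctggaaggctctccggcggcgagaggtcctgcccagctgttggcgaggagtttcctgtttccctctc
Tgfbr1 (chr4:47352972-47353271, plus strand): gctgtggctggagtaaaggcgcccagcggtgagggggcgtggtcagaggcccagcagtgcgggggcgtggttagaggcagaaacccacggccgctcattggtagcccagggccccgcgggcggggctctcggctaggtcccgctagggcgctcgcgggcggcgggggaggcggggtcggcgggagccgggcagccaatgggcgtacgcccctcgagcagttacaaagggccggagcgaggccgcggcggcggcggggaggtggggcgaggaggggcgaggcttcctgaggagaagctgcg
GAGGAA or its reverse complement was found in 28.3% of all 32841 RefSeq promoter windows of this length. The *Csf2ra* window held it at 2 adjoining places, starting 14 and 8 bases before the start site, the *Csf3r* window held it 86 bases and the *Tgfbr2* window 57 bases before the start site. The window at the first start site of *Tgfbr1* did not hold these letters, and the window of its other listed start site held them 95 bases before it. The windows of *Tgfb1*, *Nrros* and *Ski*, not shown, did not hold them, so 4 of the 7 genes had GAGGAA in a window. CAGAC, a short form of the SMAD-binding element, was found on either strand in 49.6% of all windows. It was found in those of *Csf2ra*, *Nrros*, *Tgfbr2* and the other start site of *Tgfbr1*, but not in those of *Csf3r*, *Tgfb1* or *Ski*. These matches describe the letters of the windows and not occupied sites.

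In the GRCm38 annotation *Csf1r* (ENSMUSG00000024621, chromosome 18, 61100598 to 61132149) overlaps *Hmgxb3* on the opposite strand, and no other of the 10 genes overlaps a counted gene. *Csf2ra* (ENSMUSG00000059326, chromosome 19, 61223957 to 61228429), *Csf3r* (ENSMUSG00000028859, chromosome 4, 126024550 to 126044440), *Tgfb1* (ENSMUSG00000002603, chromosome 7, 25687002 to 25705077), *Tgfbr1* (ENSMUSG00000007613, chromosome 4, 47353222 to 47414931), *Tgfbr2* (ENSMUSG00000032440, chromosome 9, 116084293 to 116175360), *Nrros* (ENSMUSG00000052384, chromosome 16, 32142785 to 32165594), *Smad7* (ENSMUSG00000025880, chromosome 18, 75367529 to 75395935) and *Ski* (ENSMUSG00000029050, chromosome 4, 155154075 to 155222592) are all protein-coding. *Csf2rb* (ENSMUSG00000071713, chromosome 15, 78325752 to 78353847) has a near-identical neighbor, *Csf2rb2* (ENSMUSG00000071714, chromosome 15, 78282507 to 78305721), which encodes the beta chain of the IL-3 receptor, so the split of UMIs between the 2 genes is uncertain.

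Microglia had a median of 8 of the 8 microglial gate markers with a UMI (unique molecular identifier, 1 counted transcript) and neutrophils 10 of the 12 neutrophil markers. The deposited libraries held 6275898 to 18872816 UMIs, and the gates left 873 to 4011 microglia, 13 to 51 neutrophils and 2 to 14 border macrophages per library. The V3.0 library of mouse 3 stood apart, with 21.5% of its barcodes passing quality control against 70.0% to 76.8% in the other libraries and a median of 809 UMIs per barcode, and 1 to 14 barcodes were shared between any 2 libraries. Border macrophages were few (12, 22 and 4 cells in mice 1, 2 and 3) and had a median of 4 of 8 border macrophage markers and 3 of 8 microglial markers with a UMI. The 8 microglial markers summed to between 1073 and 2240.4 UMIs per 1000000 UMIs (CPM) in the border macrophages of each mouse, with *Sall1* at 0, against 15096 to 15863 CPM in microglia. The 12 neutrophil markers summed to 79.4 to 141 CPM in microglia and 102810 to 106914 CPM in neutrophils, and the 4 monocyte markers to 2397 to 4152 CPM in neutrophils, with *Ccr2*, which the gate barred, at 0. The part of microglial RNA or doublets in the border macrophage values was not tested.

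Levels are given as CPM of all UMIs of a cell type in a mouse, both kits added, in the order of mice 1, 2 and 3. *Csf1r* was read at 3237, 3144 and 3177 CPM in microglia, at 1720.3, 1406 and 1207 CPM in border macrophages and at 43.3, 51.4 and 7.18 CPM in neutrophils. The 3 cell types did not overlap, and microglia lay above border macrophages and border macrophages above neutrophils in every mouse. The means were 3186 ± 47.1 CPM (SD, n = 3), 1445 ± 259 CPM (SD, n = 3) and 34.0 ± 23.6 CPM (SD, n = 3). edgeR's quasi-likelihood test, fitted across all genes with the mouse as a block and TMM scaling factors, gave a log2 fold change of 5.04 ± 0.28 (SE, adjusted p = 2.58e-69) for microglia against neutrophils, of 1.00 ± 0.24 (SE, adjusted p = 0.000397) for microglia against border macrophages and of 4.04 ± 0.31 (SE, adjusted p = 5.89e-36) for border macrophages against neutrophils. The call between microglia and border macrophages held without any 1 mouse. A microglial cell held on average 11.5 *Csf1r* UMIs and a neutrophil 0.224.

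*Csf2ra*, the alpha chain of the GM-CSF receptor, was read at 52.7, 59.6 and 54.0 CPM in microglia and at 116, 108 and 100.5 CPM in neutrophils, which lay above microglia in every mouse. Border macrophages, with 14 UMIs in all, spread from 47.2 to 201 CPM and overlapped both. The log2 fold change of microglia against neutrophils was -2.47 ± 0.19 (SE, adjusted p = 9.94e-37), and that of border macrophages against neutrophils -1.65 ± 0.40 (SE, adjusted p = 0.000225). In CPM, however, border macrophages were higher than neutrophils in mice 1 and 3 and lower in mouse 2, and the latter fold change was not called with total UMIs only. *Csf2rb*, the common beta chain, was read at 52.3, 51.8 and 59.2 CPM in microglia and at 69.3, 75.3 and 59.8 CPM in neutrophils. The 2 ranges nearly met, at 59.2 and 59.8 CPM, without overlapping. Border macrophages held 12 *Csf2rb* UMIs, none of them in mouse 3, where a count of 0 allows up to 201 CPM (3 UMIs). The log2 fold change of microglia against neutrophils was -1.84 ± 0.22 (SE, adjusted p = 3.48e-16). The paralog *Csf2rb2* was read at 17.5, 18.7 and 19.8 CPM in microglia and at 5.20, 3.67 and 7.18 CPM in neutrophils, the opposite order to *Csf2rb* in CPM, with no UMI in border macrophages.

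*Csf3r*, the G-CSF receptor, was read at 185, 169.9 and 179.5 CPM in microglia and at 253, 191 and 215 CPM in neutrophils. Neutrophils lay above microglia in each mouse and the 2 groups did not overlap, while border macrophages (100.02, 56.6 and 0 CPM, 11 UMIs in all) lay below both in mice 1 and 2. The 0 in mouse 3 rests on 4 cells and allows up to 201 CPM (3 UMIs), so it shows no order there. The log2 fold change was -1.80 ± 0.17 (SE, adjusted p = 2.35e-24) for microglia against neutrophils and -2.99 ± 0.40 (SE, adjusted p = 9.23e-13) for border macrophages against neutrophils. Microglia against border macrophages came to 1.19 ± 0.45 (SE, adjusted p = 0.0629), which missed the threshold. It passed with total UMIs as the only scaling, without the filter on low counts and with at least 500 genes per cell, at adjusted p-values of 0.00614, 0.0402 and 0.0454.

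**Figure D1:**
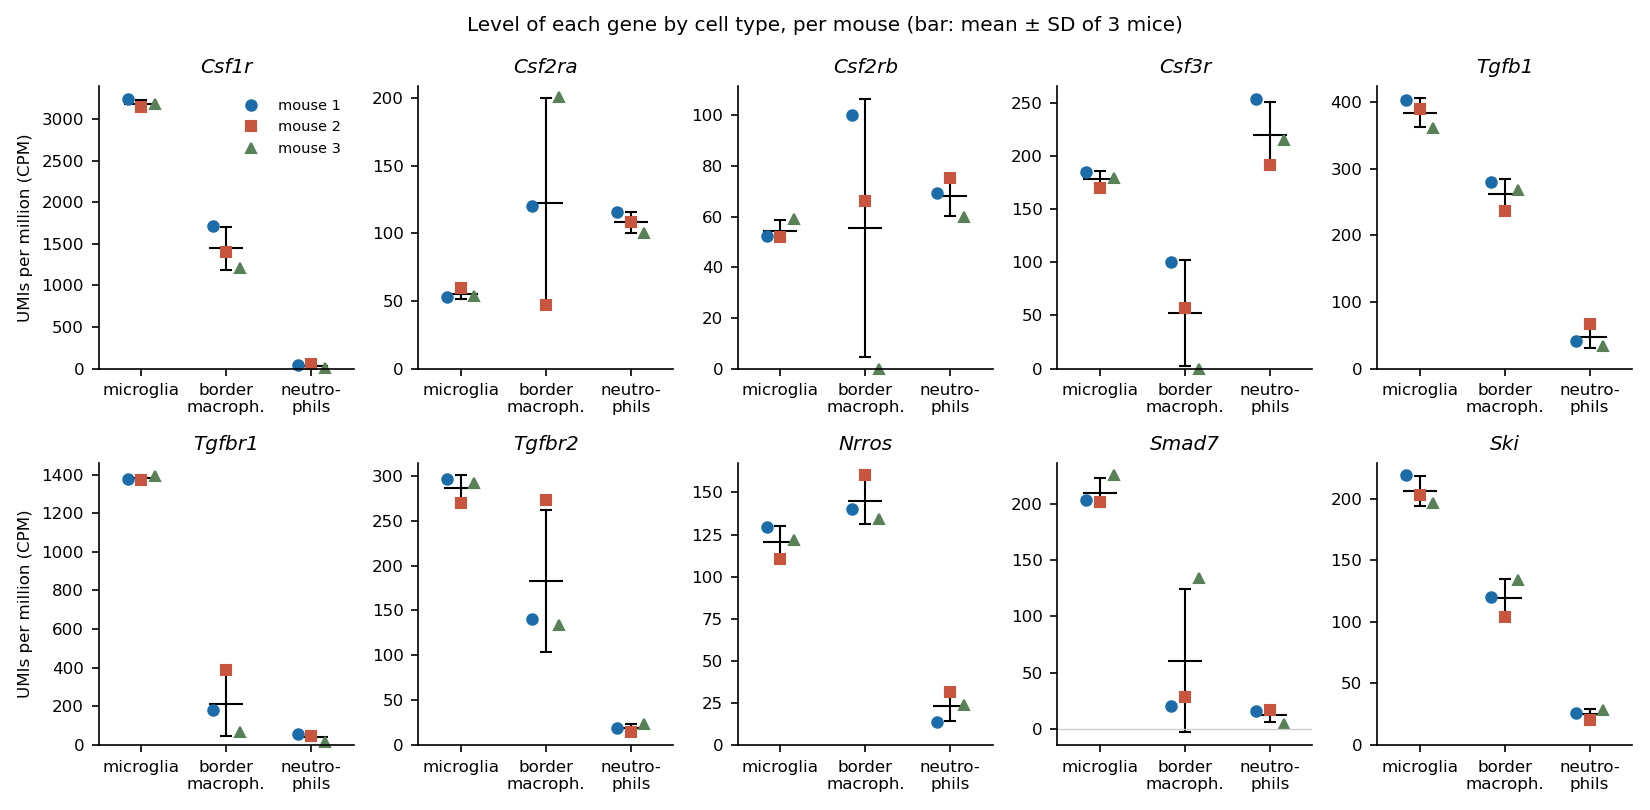
CPM of each of the 10 genes (vertical axis, a separate scale per gene) in microglia, border macrophages and neutrophils. Points are the 3 mice and bars the mean ± SD (n = 3), with *Csf1r* between 3144 and 3237 CPM in microglia and at most 51.4 CPM in neutrophils, and *Csf2ra*, *Csf2rb* and *Csf3r* higher in neutrophils than in microglia.

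The size of every difference with neutrophils depended on the scaling. *S100a8* and *S100a9*, the abundant calcium-binding proteins of neutrophils, took 39.3% of the neutrophil UMIs and 0.0765% of the microglial ones. The part of these 2 genes in the dependence on scaling was not tested. The median log2 fold change of all 7491 genes tested between microglia and neutrophils was 0.28 with TMM factors, which set most genes level between the groups, and 1.81 with total UMIs only, and between border macrophages and neutrophils it was -0.05 and 1.19. With total UMIs only *Csf2ra* stayed called higher in neutrophils than in microglia (-0.94, adjusted p = 4.22e-07), while *Csf3r* (-0.27, adjusted p = 0.062) and *Csf2rb* (-0.31, adjusted p = 0.145) missed the threshold. For border macrophages against neutrophils *Csf2ra* also lost its call (-0.38, adjusted p = 0.505), *Csf3r* kept it (-1.71, adjusted p = 0.000232), and *Csf2rb* went from -1.20 (adjusted p = 0.0246) to 0.069 (adjusted p = 0.929). The 7 genes that were higher in microglia than in neutrophils kept that direction with both scalings, with *Csf1r* at 6.54 and *Tgfbr1* at 5.12 under total UMIs only.

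*Tgfb1*, the ligand, was read at 402, 389 and 361 CPM in microglia, 280.0, 236 and 268 CPM in border macrophages and 41.6, 66.1 and 33.5 CPM in neutrophils. In CPM microglia lay above border macrophages and these above neutrophils in every mouse. The border macrophage values stood on 14, 25 and 4 UMIs. The exact 95% Poisson intervals of mice 1 and 3 (153 to 470 and 73.1 to 687 CPM) cover the microglial values. The log2 fold change was 1.53 ± 0.22 (SE, adjusted p = 3.39e-11) for microglia against neutrophils and 1.11 ± 0.35 (SE, adjusted p = 0.00612) for border macrophages against neutrophils. Between microglia and border macrophages it was 0.41 ± 0.29 (SE, adjusted p = 0.445), with a 95% interval of -0.15 to 0.97. *Nrros*, which anchors the latent ligand, was read at 129, 111 and 122 CPM in microglia, 140.0, 160.4 and 134 CPM in border macrophages and 13.9, 31.2 and 23.9 CPM in neutrophils. It was the only one of the 10 genes whose border macrophage CPM lay above the microglial CPM without overlap, but the difference was not called (log2 fold change -0.59 ± 0.36 (SE), adjusted p = 0.355). Border macrophages held 26 *Nrros* UMIs in all, and the value of mouse 3 stood on 2 UMIs in 4 cells. The exact 95% Poisson intervals start at 56.3, 93.5 and 16.2 CPM, below the microglial values, so counting error leaves the order open in each mouse. Both macrophage types lay above neutrophils, by a log2 fold change of 0.91 ± 0.28 (SE, adjusted p = 0.00198) for microglia and 1.49 ± 0.45 (SE, adjusted p = 0.00317) for border macrophages. The first of these was lost without mouse 1 (0.59, adjusted p = 0.129) and once cells of 500 genes were let in (0.25, adjusted p = 0.283), and the second without mouse 1 (1.32, adjusted p = 0.0528) or mouse 2 (1.39, adjusted p = 0.169).

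Of the receptors, *Tgfbr1*, the type I receptor, was read at 1376, 1371 and 1393 CPM in microglia, 180.0, 387 and 67.1 CPM in border macrophages and 55.5, 45.9 and 16.7 CPM in neutrophils. The microglial mean was 1380.1 ± 11.9 CPM (SD, n = 3), while border macrophages, with 51 UMIs in all, varied from 67.1 to 387 CPM. Microglia were higher than border macrophages by a log2 fold change of 2.12 ± 0.28 (SE, adjusted p = 3.66e-12), a 4.35-fold difference, and higher than neutrophils by 3.61 ± 0.25 (SE, adjusted p = 6.2e-46), a 12.2-fold difference. Border macrophages against neutrophils gave 1.49 ± 0.38 (SE, adjusted p = 0.000389). *Tgfbr2*, the type II receptor that binds the ligand, was read at 297, 270.0 and 292 CPM in microglia and 140.0, 274 and 134 CPM in border macrophages, which overlapped, and at 19.1, 14.7 and 23.9 CPM in neutrophils. The log2 fold change of microglia against border macrophages was 0.13 ± 0.29 (SE, adjusted p = 0.873) with a 95% interval of -0.44 to 0.71, and its sign turned without mouse 1 (-0.17). Both lay above neutrophils, with log2 fold changes of 2.42 ± 0.27 (SE, adjusted p = 9.9e-19) and 2.29 ± 0.42 (SE, adjusted p = 4.34e-07). Border macrophages thus differed from microglia in the type I receptor beyond the error, while for the type II receptor no difference was detected at this number of cells. Whether the 2 receptors differed from each other in this contrast was not tested.

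Of the inhibitors, *Smad7* was read at 203, 202 and 225 CPM in microglia and 15.6, 16.5 and 4.79 CPM in neutrophils, without overlap. Border macrophages held only 6 *Smad7* UMIs in all, 20.003, 28.3 and 134 CPM, and the highest of these stood on 2 UMIs in the 4 cells of mouse 3. By log2 fold change microglia were higher than border macrophages by 2.30 ± 0.51 (SE, adjusted p = 0.00014) and higher than neutrophils by 2.51 ± 0.30 (SE, adjusted p = 6.7e-16). The first difference missed the threshold without mouse 2 (2.19, adjusted p = 0.0535). *Ski*, the corepressor, was read at 219, 203 and 196 CPM in microglia. Border macrophages stood at 120.0, 104 and 134 CPM and neutrophils at 26.0, 20.2 and 28.7 CPM. The 3 ranges did not overlap in CPM, but the border macrophage values stood on 6, 11 and 2 UMIs. Their exact Poisson intervals in mice 1 and 3 (44.0 to 261 and 16.2 to 485 CPM) cover the microglial values. In mouse 3 the interval also covers the neutrophil value, so counting error leaves the order open there. The interval of mouse 2 (51.8 to 186 CPM) covers neither. Only the *Ski* difference between microglia and neutrophils was called (log2 fold change 1.57 ± 0.26 (SE), adjusted p = 5.56e-09). Against border macrophages the log2 fold change was 0.63 ± 0.37 (SE, adjusted p = 0.321), and for border macrophages against neutrophils 0.93 ± 0.48 (SE, adjusted p = 0.114), which was called with total UMIs only (2.21, adjusted p = 7.52e-05).

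All 10 genes passed the filter on low counts in every fit. A gene was called when the adjusted p was below 0.05 and the log2 fold change beyond 0.58 in either direction. Between microglia and neutrophils all 10 genes were called, where 66.2% of all 7491 genes tested were, 7 higher in microglia, against 36.8% of all genes, and 3 higher in neutrophils, against 29.4%. In the V3.0 and in the V3.1 libraries alone, and without the V3.0 library of mouse 3, all 10 stayed called. Of all genes tested, 2997 of 4846, 3603 of 5531 and 4905 of 7432 were called in these settings. Between microglia and border macrophages 3 of the 10 (*Csf1r*, *Tgfbr1* and *Smad7*) were called, each higher in microglia, against 5.35% of all genes in that direction. The same 3 were called with V3.0 alone, with V3.1 alone and without the V3.0 library of mouse 3. Beside them 537 of 4846, 503 of 5531 and 825 of 7432 genes were called in either direction. Between border macrophages and neutrophils 8 of the 10 were called, against 39.1% of all genes, 5 of them higher in border macrophages, against 17.6%, and 3 higher in neutrophils, against 21.5%. In the last comparison 6 were called with V3.0 alone (1787 of all 4846 genes tested) and 5 with V3.1 alone (1731 of 5531 genes). Without the V3.0 library of mouse 3 it was 8 (2844 of 7432 genes). The count fell to 3 without mouse 2, which gave 22 of the 38 border macrophages (1812 of 7182 genes), and to 5 without mouse 1 (2092 of 7087 genes). Without mouse 2 the calls of *Csf2ra* (-1.19, adjusted p = 0.0973), *Csf2rb* (-1.29, adjusted p = 0.192), *Nrros* (1.39, adjusted p = 0.169), *Tgfbr1* (0.42, adjusted p = 0.713) and *Tgfbr2* (1.18, adjusted p = 0.241) were lost, without mouse 1 those of *Csf2rb* (-1.41, adjusted p = 0.0735), *Nrros* (1.32, adjusted p = 0.0528) and *Tgfb1* (1.00, adjusted p = 0.0623), and without mouse 3 that of *Csf2rb* (-1.10, adjusted p = 0.0624). The median log2 fold change of the 10 genes was 1.55 between microglia and neutrophils, 0.52 between microglia and border macrophages and 1.02 between border macrophages and neutrophils, against 0.28, 0.24 and -0.05 over all genes. The comparisons of microglia and of border macrophages with neutrophils share the neutrophil sums, and the 2 with microglia share the microglial sums.

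**Figure D2:**
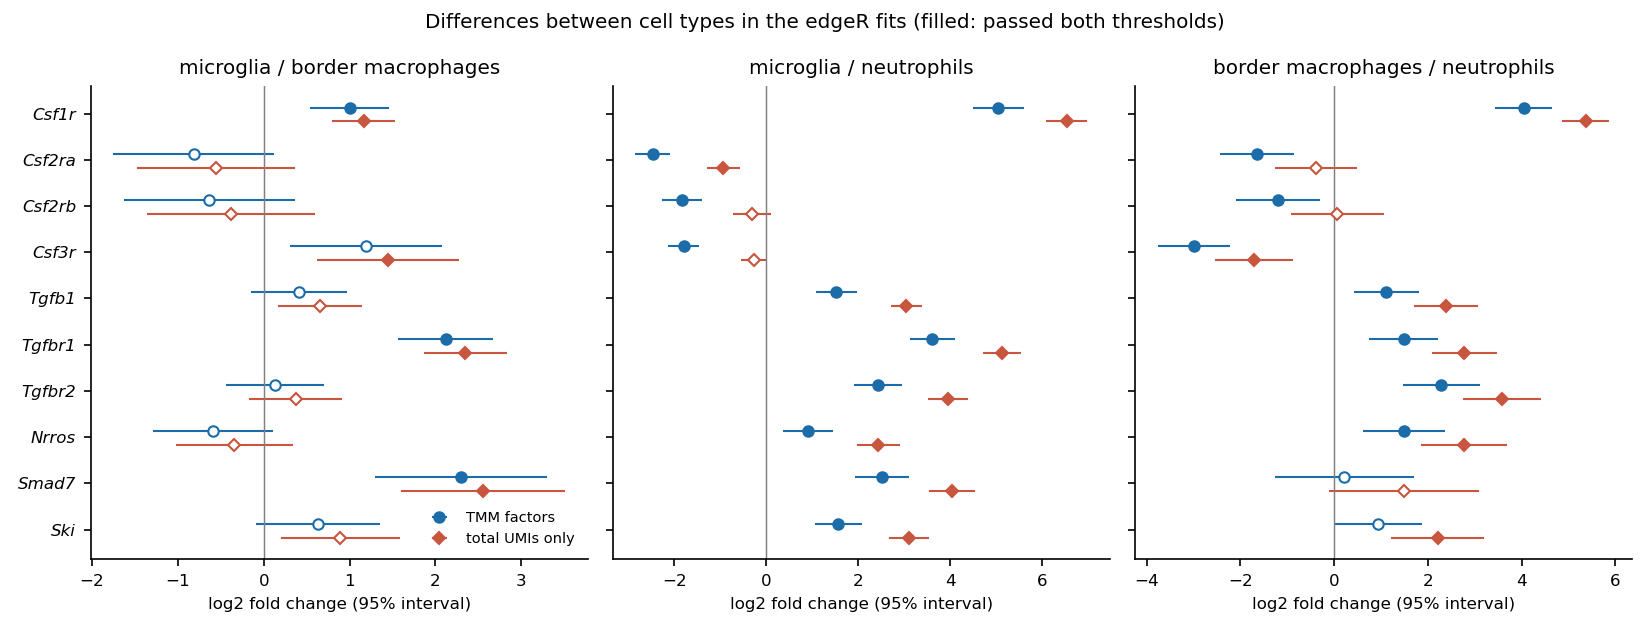
Log2 fold change of each gene (horizontal axis, with its 95% interval) in the 3 comparisons of cell types, with TMM factors (circles) and with total UMIs only (diamonds). Filled symbols passed both thresholds. *Csf3r* and *Csf2rb* between microglia and neutrophils were called only with TMM factors, while *Csf1r*, *Tgfbr1* and *Tgfbr2* were called with both scalings against neutrophils.

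The cells of 1 type differ in depth (median 3495 UMIs in microglia, 4247 in border macrophages and 5870 in neutrophils), so shares of cells with a UMI were compared after each cell was drawn down to 2000 UMIs, which left out 707 microglia and no cell of the other types. At that depth *Csf1r* was seen in 99.7% (99.6% to 99.8%) of microglia, *Tgfbr1* in 90.7% (90.3% to 91.2%), *Tgfb1* in 52.7% (51.9% to 53.4%) and *Tgfbr2* in 42.4% (41.7% to 43.2%) (exact 95% binomial intervals, counting error only). Without thinning the shares were 99.96%, 96.9%, 71.3% and 60.2%. In thinned microglia *Smad7* was seen in 33.0%, *Ski* in 32.9% and *Nrros* in 21.1%, and the other CSF receptors in 29.5% (*Csf3r*), 10.4% (*Csf2ra*) and 10.2% (*Csf2rb*). In neutrophils *Csf3r* was seen in 38% (32.0% to 44.3%), *Csf2ra* in 18.8% (14.2% to 24.2%) and *Csf2rb* in 16% (11.7% to 21.1%), and without thinning in 60.8%, 48% and 36%. *Tgfbr1* was seen in 39.5% (24.0% to 56.6%) of the 38 border macrophages at that depth.

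In droplets, RNA freed from broken cells gives UMIs in cells that do not express a gene. The share of it was gauged by 5 microglial genes that the gates did not use (*C1qa*, *C1qb*, *C1qc*, *Cx3cr1* and *Trem2*). Their CPM in neutrophils was 0.436% to 0.744% of that in microglia when pooled. Within single mice it ran from 0.388% (*Trem2*, mouse 3) to 1.06% (*Trem2*, mouse 2). *Csf1r* reached 1.14% of the microglial level in neutrophils when pooled, above the pooled range, with 56 UMIs. In mice 1, 2 and 3 it reached 1.34%, 1.64% and 0.226%. At 2000 UMIs per cell *Csf1r* was seen in 8.80%, *Tgfbr1* in 11.6%, *Tgfb1* in 9.60% and the other 4 genes in 2.40% to 4% of neutrophils, and the gauge genes in 3.60% (*Trem2*) to 15.2% (*C1qa*). Such shares depend on the level of each gene in the source, so no expression is read from them. Unthinned, *Csf1r* was seen in 16.4% and *Tgfbr1* in 21.2% of neutrophils. By CPM, *Tgfbr1* reached 3.02% of the microglial level, *Smad7* 6.23%, *Tgfbr2* 6.62%, *Ski* 11.9%, *Tgfb1* 12.5% and *Nrros* 19.0%, each above the range of the gauge genes.

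In the other direction *S100a8* and *S100a9* in microglia lay at 0.194% and 0.195% of their neutrophil CPM. *Csf2ra*, *Csf2rb* and *Csf3r* in microglia lay at 51.2%, 78.3% and 80.3% of theirs, above those percentages, although *S100a8* was itself seen in 50.4% of thinned microglia. The part of free RNA in these values was not tested.

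**Figure D3:**
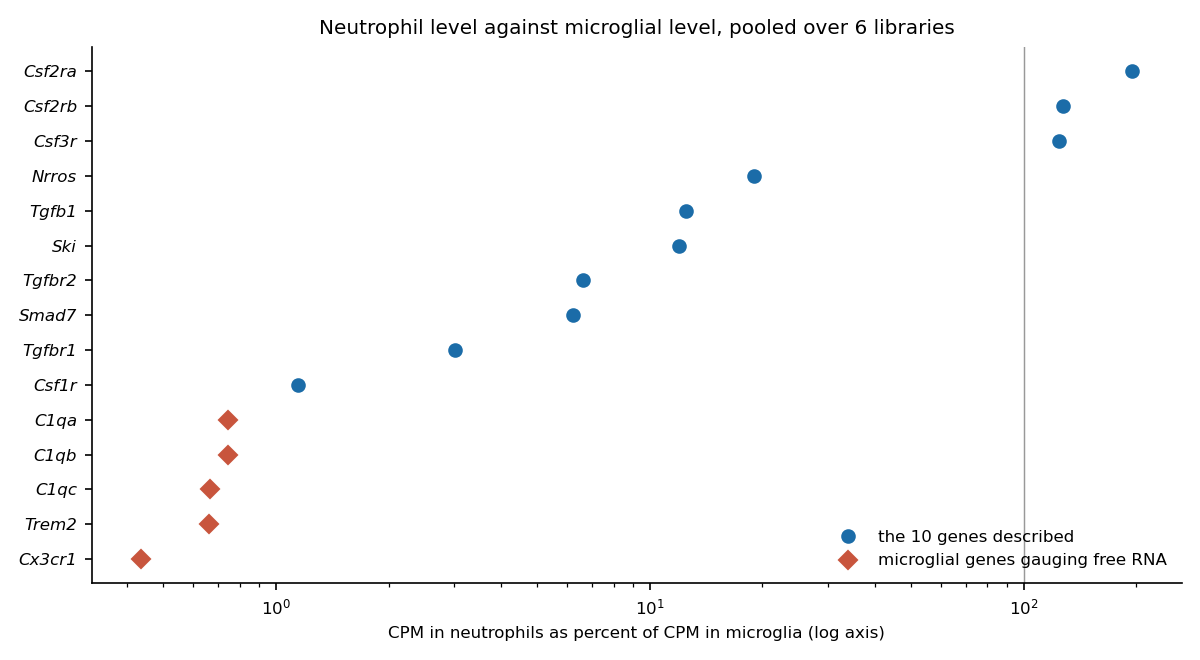
CPM in neutrophils as a percent of the CPM in microglia (horizontal log axis), pooled over the 6 libraries, for the 10 genes (circles) and the 5 microglial genes that gauge free RNA (diamonds). *Csf1r* at 1.14% lies next to the gauge genes, which end at 0.744%, and *Csf2ra*, *Csf2rb* and *Csf3r* lie above 100%.

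The minimum of 1000 genes per cell removed about as many neutrophils as it kept. In a view added after the data were seen, the 246 gated neutrophils with at least 500 but under 1000 genes were set beside the 250 with 1000 or more. *Csf3r* was read at 1158, 893 and 1234 CPM in the first set and at 253, 191 and 215 CPM in the second, higher in the first in every mouse without overlap. The 246 cells held fewer UMIs each (a mean of 2248 against 6157), yet more *Csf3r* UMIs, 2.69, 1.95 and 2.72 per cell against 1.51, 1.17 and 1.41. The other 2 receptors did not share this pattern per cell. *Csf2ra* had 0.265, 0.287 and 0.311 UMIs per cell in the smaller cells against 0.691, 0.663 and 0.656, and *Csf2rb* 0.357, 0.322 and 0.230 against 0.412, 0.461 and 0.391, lower in every mouse. In CPM *Csf2rb* was 153, 147 and 104 in the smaller cells, above 69.3, 75.3 and 59.8 in every mouse, and *Csf2ra* was 114, 131 and 141, against 116, 108 and 100.5, lower in mouse 1 and higher in mice 2 and 3. *S100a8* took 116030 CPM of the smaller cells and 187065 CPM of the larger ones, and *C1qa*, a free RNA gauge, 193 and 71.5 CPM. Their part in the difference was not tested. In microglia the same split, 4549 against 17124 cells, gave 248 and 177 CPM of *Csf3r*, and per cell the smaller microglia held fewer *Csf3r* UMIs (0.298 against 0.638). *Csf1r* behaved likewise there, at 4909.9 and 3184 CPM and 5.90 and 11.5 UMIs per cell. With all cells of at least 500 genes the log2 fold change of *Csf3r* between microglia and neutrophils was -2.74 ± 0.18 (SE, adjusted p = 2.01e-53).

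**Figure D4:**
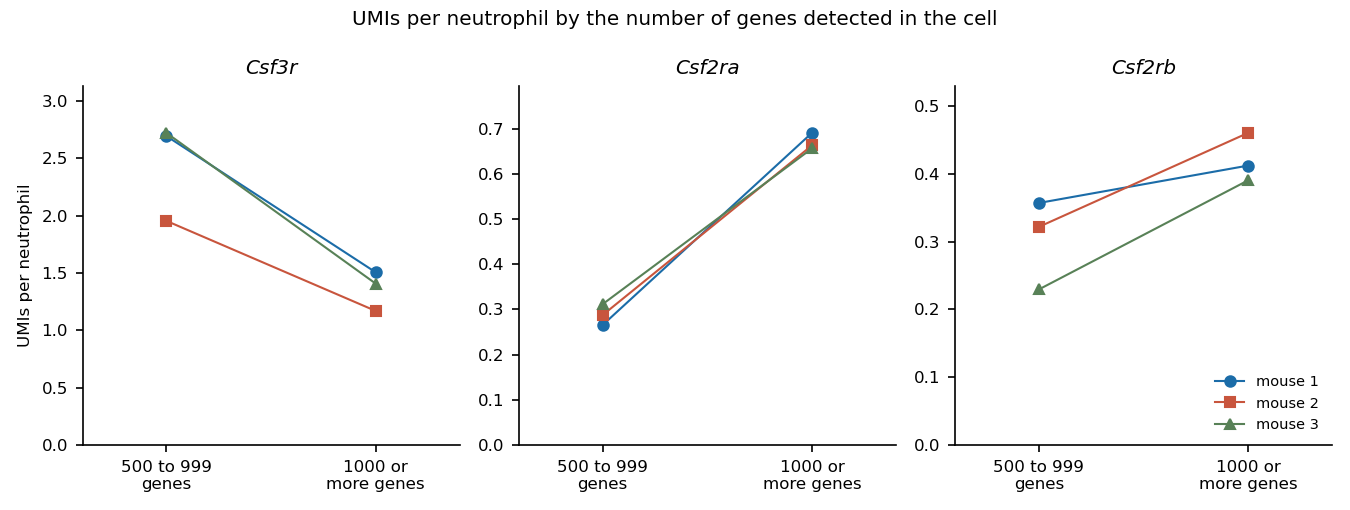
UMIs per neutrophil (vertical axis, a separate scale per gene) of *Csf3r*, *Csf2ra* and *Csf2rb* in the 246 neutrophils with at least 500 but under 1000 genes and the 250 with 1000 or more. Lines join the values of a mouse. *Csf3r* falls from 2.44 to 1.36 UMIs per cell over all mice, and the other receptors rise.

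Further genes of both pathways, 44 of TGF-beta and 43 of CSF signaling, were read from lists that leave out the 10 genes. Of the 28 TGF-beta genes tested between microglia and border macrophages, 4 were called higher and 2 lower in microglia (against 5.35% and 6.62% of all genes), with a median log2 fold change of 0.85 against 0.24 over all genes. The integrin subunits *Itgav* and *Itgb5*, whose dimer can release latent TGF-beta, were higher in microglia by 1.55 (adjusted p = 0.0269) and 1.07 (adjusted p = 0.000924), and so was *Skil*, a corepressor related to *Ski* (1.23, adjusted p = 0.0058). Of the receptors on the list, *Eng*, a coreceptor, was higher in microglia, at 76.7 ± 4.90 CPM (SD, n = 3) against 2 UMIs in all border macrophages (adjusted p = 0.0246). *Acvrl1*, a type I receptor, went the other way, at 25.3 ± 1.67 CPM (SD, n = 3) in microglia and 96.6 ± 28.0 CPM (SD, n = 3) in border macrophages (-2.42, adjusted p = 1.3e-05). *Fkbp1a*, which encodes a protein that binds type I receptors, was lower in microglia (-0.99, adjusted p = 0.0304), a call lost with total UMIs only (-0.74). Of the 28 CSF genes tested, 5 were called higher and 1 lower in microglia, among them the kinase *Lyn* (1.12, adjusted p = 0.00164), *Pik3r1*, a subunit of PI3 kinase (1.13, adjusted p = 0.0141), and the lipid phosphatase *Inpp5d* (1.02, adjusted p = 0.00736), with a list median of 0.37 (0.36 with genes at 0 in a group set at their bound).

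Between microglia and neutrophils 13 of the 28 TGF-beta genes tested were called higher and 7 lower in microglia, against 36.8% and 29.4% of all genes (median 0.62, against 0.28 over all genes). With total UMIs only the counts were 23 and 2, where 6493 of all 7491 genes were called, 5600 of them higher in microglia. *Eng*, *Acvr2b* and *Acvr1*, receptors or coreceptors of the family, had no UMI in any neutrophil, so their microglial CPM was at least 39.7-fold, 23.7-fold and 20.9-fold higher (against a floor of 3 UMIs over all neutrophils). *Itgb5* had 1 UMI in neutrophils against 840.1 ± 38.8 CPM (SD, n = 3) in microglia. *Thbs1*, thrombospondin 1, which can activate latent TGF-beta, was higher in neutrophils, at 135 ± 70.3 CPM (SD, n = 3) against 4.11 ± 1.00 CPM (SD, n = 3) in microglia (-6.42, adjusted p = 2.26e-143). *Acvrl1* was also higher in neutrophils (-2.86, adjusted p = 7.33e-31, and -1.32 with total UMIs only). *Usp15* and *Ppm1a*, called lower in microglia (-1.13 and -0.90), turned to 0.40 and 0.63 with total UMIs only.

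Of the 28 CSF genes tested, 5 were called higher and 17 lower in microglia than in neutrophils (median -1.16). The shares of all genes were the same 36.8% and 29.4%. With total UMIs only the counts turned to 13 and 3, beside 6493 of 7491 genes called, 5600 of them higher in microglia. *Fgr*, a kinase of the SRC family, was higher in neutrophils under both scalings, at 146 ± 32.9 CPM (SD, n = 3) against 2.82 ± 0.182 CPM (SD, n = 3) in microglia (-7.19, adjusted p = 3.39e-212). The adaptors *Dok2* (-6.81) and *Dok3* (-3.01) followed it (adjusted p = 5.63e-28 and 3.02e-55), and *Mapk3* (-1.75, adjusted p = 6.61e-23) did so with TMM factors but was not called with total UMIs only (-0.23). *Inpp5d* (1.65, adjusted p = 2.57e-13), *Pik3r1* (1.21, adjusted p = 1.05e-07) and *Dok1* (1.28, adjusted p = 0.00104) were higher in microglia with both, and *Src* had 1 UMI in neutrophils against 21.7 ± 1.11 CPM (SD, n = 3) in microglia. None of the 6 ligand genes on the list passed the filter on low counts between the cell types, *Csf1* with 8.51 ± 2.97 CPM (SD, n = 3) in microglia and 7.77 ± 1.24 CPM (SD, n = 3) in neutrophils, and *Il34*, *Csf2* and *Csf3* with no UMI in any gated cell at this depth. Between border macrophages and neutrophils 5 TGF-beta genes were called higher and 6 lower in border macrophages, beside 17.6% and 21.5% of all genes (median -0.26, against -0.05 over all genes). With total UMIs only the counts were 10 and 1, where 3468 of all 7491 genes were called, 2831 of them higher in border macrophages. *Pmepa1*, which encodes an inhibitor of the pathway, stood at 1089 ± 204 CPM (SD, n = 3) in border macrophages and 7.90 ± 4.99 CPM (SD, n = 3) in neutrophils (5.75, adjusted p = 3.29e-50). None of the CSF genes was called higher in border macrophages with TMM factors and 16 were called lower (median -1.42). With total UMIs only 5 were called higher and 2 lower, beside the same 3468 of 7491 genes, 2831 of them higher. *Fgr* was among the 2, with no UMI in border macrophages.

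The kits were compared in microglia, with 3 libraries each. None of the 10 genes was called by edgeR between V3.1 and V3.0, where 3.00% of the 11933 genes tested were. DESeq2 called none either. Of the 10 genes 3, *Csf3r*, *Ski* and *Csf2ra*, passed the adjusted p alone, as 13.1% of all genes did, without reaching the fold threshold. The median log2 fold change of the 10 genes was -0.10, against 0.00 over all genes. *Csf3r* stood at 218, 193 and 200.3 CPM with V3.0 and 142, 141 and 175 CPM with V3.1 in mice 1, 2 and 3, the latter lower in every mouse and without overlap (log2 fold change -0.40 ± 0.09 (SE), adjusted p = 0.0115). *Ski* stood at 245, 222 and 219 CPM with V3.0 and 187, 178 and 191 CPM with V3.1, again lower in every mouse (log2 fold change -0.29 ± 0.07 (SE), adjusted p = 0.0155). *Csf2ra* stood at 57.3, 66.2 and 62.5 CPM with V3.0 and 46.9, 51.3 and 52.0 CPM with V3.1 (log2 fold change -0.29 ± 0.09 (SE), adjusted p = 0.0396), lower in every mouse and without overlap. In fold terms these differences were 1.32-fold, 1.22-fold and 1.22-fold. Their adjusted p-values rose above 0.05 without mouse 1 (0.114, 0.14 and 0.0845) and without mouse 2 (0.0917, 0.127 and 0.262), and that of *Csf2ra* also without mouse 3 (0.0908).

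*Csf1r* stood at 3443, 3199.9 and 3304 CPM with V3.0 and 2973, 3072 and 3148 CPM with V3.1, the latter below the former throughout without overlap in CPM, but the fit found -0.10 ± 0.06 (SE, adjusted p = 0.335) with a 95% interval of -0.22 to 0.03. *Tgfb1* was likewise lower with V3.1 in all 3 mice (401 ± 13.1 CPM (SD, n = 3) with V3.0 and 372 ± 16.5 CPM (SD, n = 3) with V3.1, adjusted p = 0.376), and so was *Csf2rb* (59.1 ± 4.19 CPM (SD, n = 3) with V3.0 and 50.041 ± 7.06 CPM (SD, n = 3) with V3.1, adjusted p = 0.211). *Tgfbr2* (275 ± 21.2 CPM (SD, n = 3) with V3.0 and 300.5 ± 11.2 CPM (SD, n = 3) with V3.1, adjusted p = 0.178) and *Nrros* (116 ± 11.2 CPM (SD, n = 3) with V3.0 and 125 ± 7.15 CPM (SD, n = 3) with V3.1, adjusted p = 0.329) were higher with V3.1 in all 3 mice, and *Tgfbr1* (1416 ± 31.6 CPM (SD, n = 3) with V3.0 and 1334 ± 57.4 CPM (SD, n = 3) with V3.1) and *Smad7* (201 ± 23.2 CPM (SD, n = 3) with V3.0 and 222 ± 2.25 CPM (SD, n = 3) with V3.1) changed sign between mice. In neutrophils *Ski* stood at 33.7, 24.0 and 53.3 CPM with V3.0 and 19.4, 16.969 and 23.3 CPM with V3.1, a fall in every mouse, on 38 UMIs in all and untested. *Csf3r* and *Csf2ra* did not repeat their microglial fall in neutrophils. *Csf3r* averaged 222 CPM with V3.0 and 223 CPM with V3.1, and *Csf2ra* 102 and 115 CPM. Both genes moved up in some mice and down in others, also untested. The median share of mitochondrial UMIs per microglial cell was 1.55% to 2.04% in the V3.0 libraries and 0.771% to 1.08% in the V3.1 libraries, and its part in these differences was not tested. Of the 35 further TGF-beta genes tested, 2 activin receptor genes were called, *Acvr2a* higher with V3.1 (0.62, standard error 0.10, adjusted p = 0.00237) and *Acvr2b* lower (-0.64, standard error 0.09, adjusted p = 0.000847), and of the 36 further CSF genes none, with list medians of -0.01 and 0.01 against 0.00 over all genes.

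**Figure D5:**
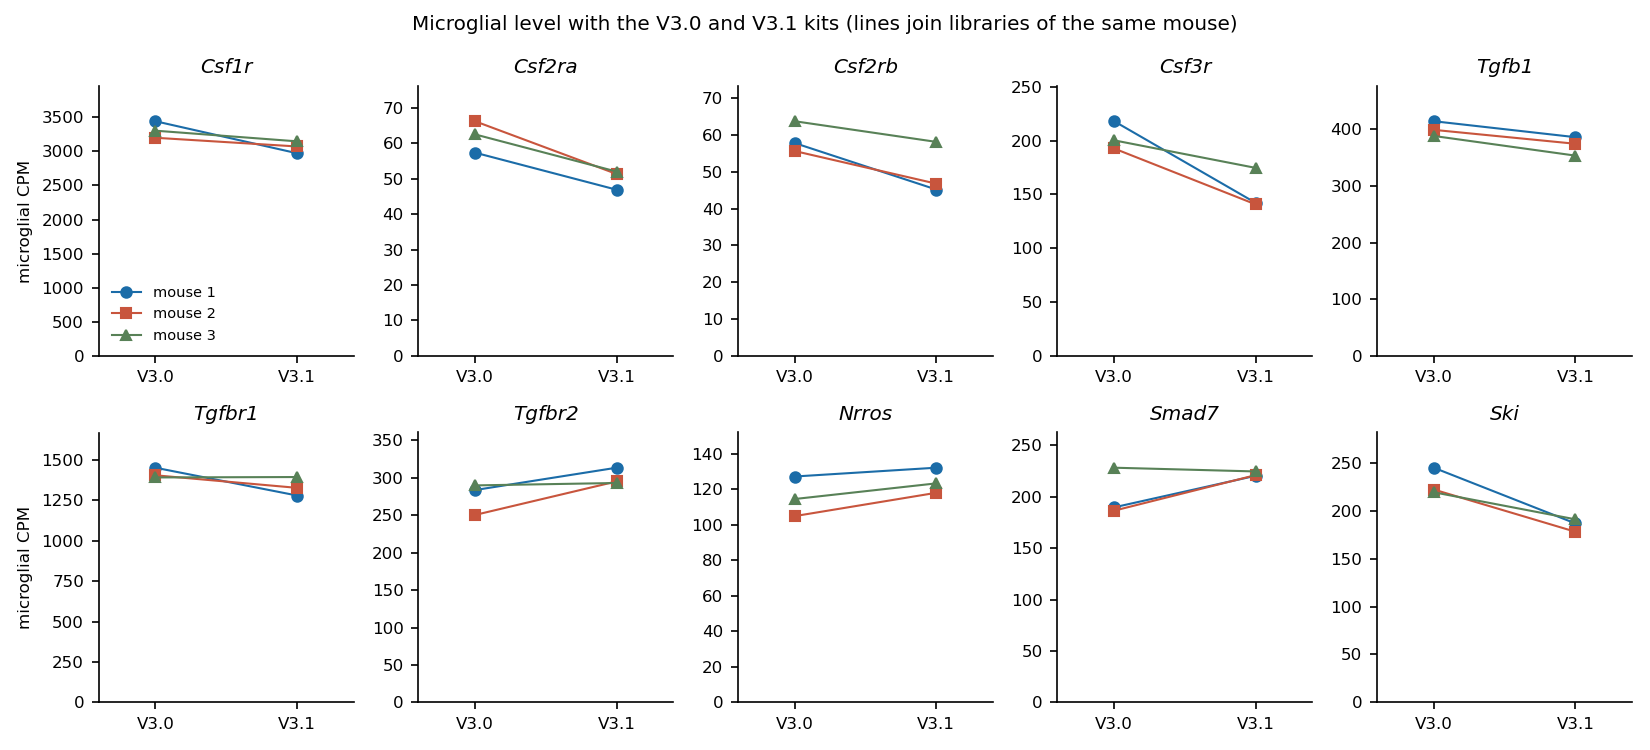
CPM of each gene in microglia (vertical axis from 0, a separate scale per gene) with the V3.0 and V3.1 kits. Lines join the 2 libraries of a mouse. *Csf3r* and *Ski* fall in every mouse, *Csf3r* from 204 to 152 CPM on average, while *Tgfbr1* and *Smad7* move both ways.

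The inhibitor cocktail was given to mouse 2 alone, so the cocktail and the mouse cannot be told apart. The sums of mouse 2 were compared with those of mice 1 and 3 in microglia. The spread came from mice 1 and 3 alone, and mouse 2 was assumed to vary like them, so the p-values and intervals below carry no replicate check of the inhibitors. None of the 10 genes was called by edgeR, where 0.466% of the 13079 genes tested were, none had an unadjusted p under 0.05, and DESeq2 called none. The log2 fold changes ran from -0.17 (*Nrros*, 95% interval -0.36 to 0.02) to 0.17 (*Csf2ra*, 95% interval -0.02 to 0.37), with adjusted p-values of 0.784 and 0.786. *Csf1r* was at -0.02 (-0.19 to 0.16) and *Tgfbr1* at -0.0015 (-0.18 to 0.18). The median of the 10 genes was -0.05, against -0.01 over all genes. None of the further TGF-beta and CSF genes was called, with list medians of 0.02 and 0.08.

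From cell to cell, the variance of the thinned UMIs divided by their mean, which is close to 1 where cells differ by counting alone, was computed in the microglia of each library. It lay between 1.25 and 1.37 for *Tgfbr1* and between 1.17 and 1.27 for *Csf1r*, on means of 2.54 to 2.94 and 5.92 to 6.88 UMIs per cell. For *Smad7* it lay between 1.08 and 1.20, and for the remaining genes between 0.990 and 1.1515. Their means were lower, 0.373 to 0.456 UMIs per cell for *Smad7* and at most 0.844 for the remaining genes. At equal relative variation between cells this ratio rises with the mean, so it does not rank genes of unlike means by their variation.

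Over the 9 sums of 3 cell types and 3 mice, the genes whose log2(CPM + 1) followed each of the 10 closely were listed by Pearson's r among genes with a mean of at least 20 CPM, the gate markers left out. The sums share their libraries and cell types. For genes whose levels separate the types, these correlations describe the order of 3 cell types more than 9 separate points. *Csf2rb* and *Csf3r*, however, had no UMI in the 4 border macrophages of mouse 3. The other sums were at least 51.8 CPM for *Csf2rb* and 56.6 CPM for *Csf3r*. Their r therefore leans on that 1 sum. For *Csf1r* the genes listed were *Psmd7* (r = 0.996), *Srsf2* (0.996) and *Atraid* (0.996), and for *Tgfbr1* *Scaf11* (r = 0.987), *Serinc1* (0.982) and *Psmc3* (0.981). For *Tgfb1* they were *Srsf2* (r = 0.997), *Cttnbp2nl* (0.997) and *Snrnp48* (0.995), for *Tgfbr2* *Syncrip* (r = 0.997), *Arl8b* (0.995) and *Grn* (0.993) and for *Nrros* *Nme2* (r = 0.997), *Dbp* (0.992) and *Tm2d3* (0.991). For *Csf3r* they were *Ypel5* (r = 0.997) and *Gfpt1* (0.995), for *Csf2ra* *Sirpb1c* (r = 0.988), *Ddx58* (0.973) and *Chmp2a* (0.962) and for *Csf2rb* *Rap2c* (r = 0.998), *Capns1* (0.997) and *Eif4ebp2* (0.997). For *Ski* they were *Tacc1* (r = 0.997) and *Ivns1abp* (0.993), and for *Smad7*, read on few border macrophage UMIs, *Tiprl* (r = 0.990), *Wasf2* (0.989) and *Slc16a6* (0.984).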

How the data were processed

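Single-cell RNA-seq was done on sorted brain myeloid cells from 3 mice, with a 10X V3.0 and a V3.1 library per mouse. According to the submitters' processing notes the reads were processed with Cell Ranger 5.0.0 on mm10 (GRCm38), and the authors deposited raw UMI counts per gene and barcode, 1 matrix per library, with nothing normalized. Because a UMI marks a molecule near the 3' end, levels of different genes were not ranked against each other.

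Barcodes entered with 1000 to 4000 genes, up to 12000 UMIs and up to 15% of them mitochondrial. Microglia had a UMI in at least 4 of 8 own markers and at most 1 of every other panel. Border macrophages had at least 3 of 8 own markers, at most 5 microglial, 2 neutrophil and 1 lymphocyte markers and no monocyte marker. Neutrophils had at least 3 of 12 own markers, at most 1 microglial, 1 border macrophage and 1 lymphocyte marker and no *Ccr2*. The first thresholds for border macrophages and neutrophils, with the same markers, left 14 and 96 cells and were widened after these numbers, but no level of the 10 genes, had been seen. No doublet caller was run, and the exclusive gates were the only guard.

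UMIs were summed per mouse and cell type (3 mice, 9 sums, mouse as a block) or per library (kits in microglia), or per mouse (inhibitors in microglia). Tests were two-sided edgeR 4.0.16 quasi-likelihood tests (limma 3.58.1, R 4.3.3) with TMM factors, filterByExpr and Benjamini-Hochberg adjustment over all genes tested, and a gene was called at an adjusted p under 0.05 if its log2 fold change exceeded 0.58 in size. Fold changes, levels and figures used Python 3.11.15 (numpy 2.4.6, pandas 2.3.3, scipy 1.17.1, matplotlib 3.10.9). Intervals of fold changes come from the standard error of the fit. Intervals of shares are exact (Clopper-Pearson) and, like the floor of 3 counts, cover counting error only. The fits were tested on simulated data. Both libraries of a number come from the same mouse, and their deviations from the kit means correlated at 0.408, 0.505 and 0.215 in mice 1, 2 and 3 (500 genes).

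The alternatives were DESeq2 1.42.0, total UMIs as the only scaling, no filter on low counts, 1 more marker in each gate, 500 genes per cell, the fit with or without the block, each mouse left out, each kit alone and the V3.0 library of mouse 3 left out. Of the pathway lists, at most 4 called genes per direction and comparison with the largest fold change that moved the same way in every mouse were named, and of the other genes up to 3 among those most alike by Pearson's r. Results that need items withheld for evaluation are not reported here. *Csf1* and the ligands without a UMI were named after their values were seen. The 10 genes, the lists and the alternatives were chosen with earlier results of these data known. The mice are separate animals, but p-values of the kit comparison rest on 3 mice captured with both kits, treated as 6 separate libraries.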

Additional observations from a re-analysis of the deposited data

Results flagged for a closer look

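*Smad7* in the neutrophils of the V3.1 library of mouse 3 stood apart from the other libraries. It was read at 2.92 CPM there, on 1 UMI in 51 cells, against 13.3 to 16.97 CPM in the other 5 libraries. Those values also rest on few UMIs, 1 for mouse 3 with the V3.0 kit and 4 or 5 in the others, and the exact 95% Poisson interval of the low value reaches 16.3 CPM. The gap to the nearest library was 0.740 of the whole range, above Dixon's 95% critical value for 6 samples. Of 20 groups of 6 libraries examined in this way, 1 was singled out, and chance singles out about 1 in 20.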

How the results depend on the processing

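Of the log2 fold changes of the 10 genes under each alternative, 503 kept their direction and call, 24 lost a call, 4 gained one and 9 changed sign. The cause was not tested unless given here. The sign changes were in differences that were not called, except *Csf2rb* for border macrophages against neutrophils with total UMIs only (0.069). For the same comparison *Smad7*, read on 6 border macrophage UMIs, turned to -0.98 with 1 more marker in each gate, -0.33 with 500 genes per cell, -0.53 to 0.72 when 1 mouse was left out (below 0 without mouse 3), -0.19 in the V3.0 libraries and -0.36 without the V3.0 library of mouse 3. For microglia against border macrophages *Csf2rb* turned to 0.21 in the V3.1 libraries and *Tgfbr2* ran from -0.17 (without mouse 1) to 1.09 when 1 mouse was left out. For the inhibitors *Csf1r* turned to 0.012 in the V3.1 libraries.

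The counts of genes called over the whole table, some of which moved by over 1.5 times, were as follows. Between microglia and border macrophages 897 were called, 537 in the V3.0 and 503 in the V3.1 libraries alone, and 433 to 868 without 1 mouse. Between microglia and neutrophils 4956 were called, 2997 with V3.0 alone, and 4130 to 4654 without 1 mouse. Between border macrophages and neutrophils 2926 were called, 1787 with V3.0 and 1731 with V3.1 alone, and 1812 to 2712 without 1 mouse. Between the kits 358 were called and 159 to 416 without 1 mouse. Between the inhibitor groups 61 were called, 17 by DESeq2, 117 without the filter on low counts and 39 with 1 more marker. The share of calls higher in microglia than in neutrophils rose from 55.6% to 86.2% with total UMIs only, and from 44.7% to 65.0% against border macrophages (29.4% with DESeq2). For border macrophages against neutrophils it rose from 45.1% to 81.6%.

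With the mouse as a replicate block 533 genes were called between the kits, none of them among the 10, and the block changed no call of theirs. Without it 968, 5117 and 3040 genes were called between the cell types. The first gate held too few border macrophages for a fit and gave 4315 calls between microglia and neutrophils, with all 10 genes called. Border macrophages, at 4 cells in mouse 3, limit every statement about them.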
